A study of Homo sapiens with 6 samples.

Results

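The genes described here are 53 neighbours on the long arm of human chromosome 14, lying between ATL1 and PRKCH, which were picked because many of them had higher signals in TEM4-18 than in PC-3 cells. TEM4-18 and TEM2-5 are human prostate cancer lines, each recovered in its own experiment after crossing a confluent layer of human lung microvascular endothelial cells. PC-3 is their parental line, first grown from a bone metastasis. The series holds 2 arrays each of TEM4-18, TEM2-5 and PC-3, all from cells grown in DMEM/F12 with 10% FBS. Each TEM line is a single isolate, and PC-3 is a single line. The labels do not say whether the 2 arrays of a line hold RNA of different cultures. The p-values therefore measure array-to-array spread, which may be purely technical. The members were chosen on the difference between TEM4-18 and PC-3, and that difference is therefore given as a description with no test. Of the 53 members, 52 had a probe set annotated with that symbol alone, and 50 had a mean signal over the 6 arrays above the filter of 174 array units, among 13621 genes that passed it. ARID4A had no such probe set, and DACT1 and RTN1 lay below the filter, with signals of at most 201 on every array.

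Genes that sit next to each other on a chromosome usually differ in function, and each has its own promoter. Transcript levels of neighbours are nonetheless known to move together where a segment is gained or lost, as is common in cancer lines, or where chromatin changes over several genes. These arrays measured transcript levels alone, and neither copy number nor chromatin was measured. The stretch holds genes of very different roles, among them subunits of the proteasome, a kindlin that activates integrins, regulators of the Hippo pathway, proteins of the mitotic spindle, a prostaglandin receptor and enzymes of the endoplasmic reticulum.

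Over tested probe sets, log2 signals correlated between the 2 arrays of a line at 0.976 to 0.980, and between arrays of different lines at 0.923 to 0.972. The epithelial markers KRT8, KRT18, KRT19, EPCAM and CDH1 were summed to 62194 and 68654 in TEM4-18, 75467 and 82589 in TEM2-5, and 174728 and 181499 in PC-3. Of 10 endothelial markers, VWF, CDH5, TEK, TIE1 and CLDN5 lay below the filter, and the summed level of the list was 3858 to 5244 in TEM4-18, 4174 to 4408 in TEM2-5, and 2804 to 2989 in PC-3. KDR, ESAM and ROBO4 were the endothelial markers with both TEM4-18 arrays above both PC-3 arrays. EGFL7 was the 1 marker below, at 278 and 313 in TEM4-18 and 391 and 497 in PC-3. Of 7 prostate lineage markers, 3 lay above the filter. TMPRSS2 and HOXB13 were above PC-3 on both TEM4-18 arrays, and 0 of that list were below. Its summed level was 14106 to 15156 in TEM4-18, 12057 to 12901 in TEM2-5, and 7389 to 10081 in PC-3. Of 6 fibroblast markers, COL1A1 alone was above PC-3 on both TEM4-18 arrays, and 3 (COL1A2, COL3A1 and LUM) were below. The summed level was 19431 to 22898 in TEM4-18, 19130.2 to 23239 in TEM2-5, and 8107 to 9926 in PC-3. Most of that sum was COL1A1, at 18862 and 22388 in TEM4-18, and 6869 and 8299 in PC-3. The part of these markers in the results below was not tested. Of 5 leukocyte markers, 0 lay above the filter.

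Most tested members had their highest signals in TEM4-18, intermediate signals in TEM2-5 and their lowest in PC-3. On the log2(signal + 51.8) scale the median difference between TEM4-18 and PC-3 was 0.80 over the 50 tested members, against -0.038 over all 13621 tested genes. Of the 50, 40 lay above and 5 below PC-3 with an adjusted p under 0.05 from limma (Benjamini-Hochberg), where 13.3% of all tested genes were higher and 16.0% lower, and these counts describe the choice of members. Both TEM4-18 arrays lay above both PC-3 arrays for 41 members, where 28.3% of all tested genes did so. Differences ran from -2.11 for TMEM30B to 3.31 for PELI2. Genes with much higher and much lower signals than PC-3 thus lay within the same stretch.

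TEM2-5, which the choice of members did not use, showed the same kind of pattern at smaller size. Against PC-3, 33 of the 50 tested members rose in TEM2-5, 6 fell and 11 did not pass the threshold of 0.05. Of all tested genes, 8.98% rose and 10.1% fell. At an unadjusted p under 0.05, 2094 of all 13621 tested genes rose in TEM2-5 and 2392 fell. The median difference of the members was 0.54 on the log2 scale, against -0.024 over all tested genes. Both TEM2-5 arrays lay above both PC-3 arrays for 39 members, where 27.7% of all tested genes did so. This comparison shares the PC-3 arrays with the comparison that chose the members and is not independent of it. When limma was fitted with no trend of variance on signal, 21 members rose and 2 fell. The 12 rises lost in that fit were those of PYGL, TMX1, FRMD6, PSMC6, CGRRF1, FBXO34, KTN1, TMEM260, AP5M1, ACTR10, KIAA0586 and MNAT1, and the 4 falls lost were those of ERO1A, GCH1, LGALS3 and DAAM1. These counts take the brightest probe set of each gene, and that of ERO1A goes against its other probe sets. The 33 and the 21 rises both include PELI2, which passed the filter only through the isolates and is given with no p below.

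**Figure D1:**
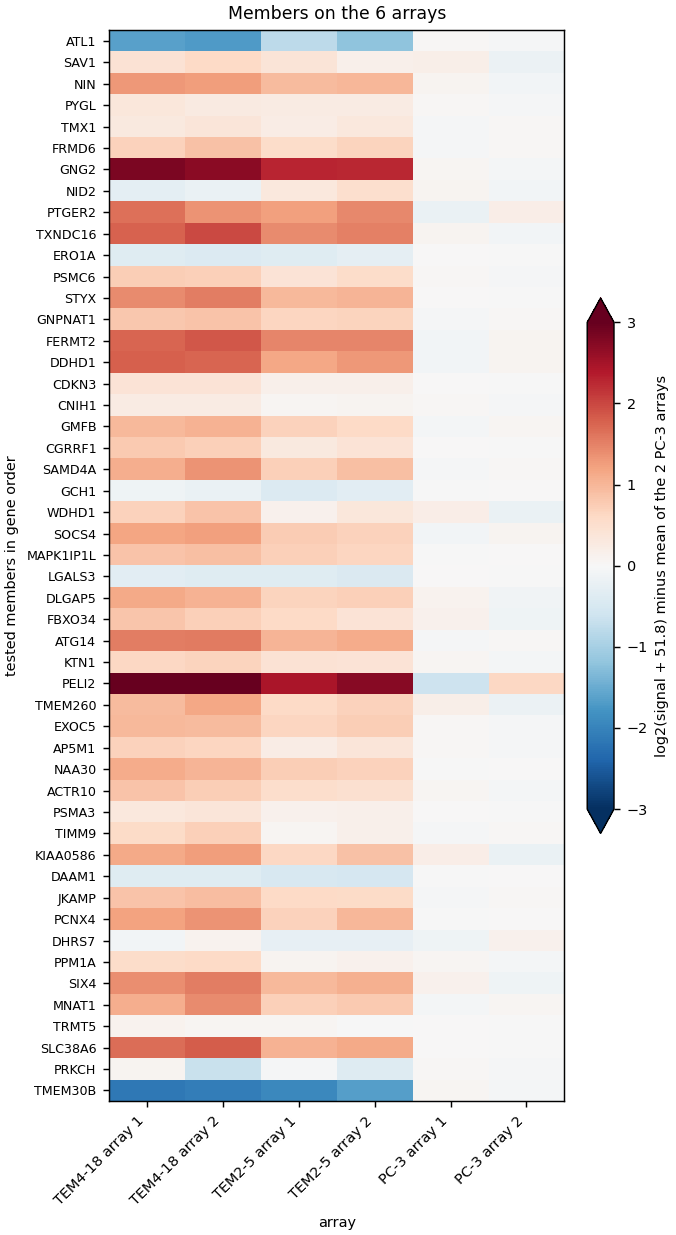
Signals of the 50 tested members on the 6 arrays, in gene order from ATL1 at the top to TMEM30B, which lies within PRKCH, at the bottom. Each cell is log2(signal + 51.8) minus the mean of the 2 PC-3 arrays, with red above and blue below PC-3; PELI2 and GNG2 stand out as the darkest red rows, and ATL1 and TMEM30B as the darkest blue ones.

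The isolates were also set against each other. Between TEM4-18 and TEM2-5, 15 of the 50 tested members were higher in TEM4-18 by limma's adjusted p and 0 were lower, where 0.492% of all tested genes were higher and 2.26% lower. At an unadjusted p under 0.05, 36 members were higher and 3 lower, beside 768 and 1249 of all 13621 tested genes. These 15 made up 22.4% of the 67 genes called higher in TEM4-18 than in TEM2-5, and 30 of the 67 lay on chromosome 14. Of all 13621 tested genes, 50 were members and 444 lay on chromosome 14. The difference was positive for 45 of the 50 members, with a median of 0.30 against -0.011 over all tested genes. Both TEM4-18 arrays lay above both TEM2-5 arrays for 43 members, where 20.4% of all tested genes did so. The number of calls rested on single arrays and on the variance model: when 1 TEM4-18 array was left out it was 5 (replicate 1) or 0 (replicate 2). When 1 TEM2-5 array was left out it was 0 (replicate 1) or 1 (replicate 2), and a fit with no trend of variance on signal gave 0. In the fit with no trend, 24 members were higher at an unadjusted p under 0.05. No share over all tested genes is given at that threshold for this fit. With no filter on low values, 6 members passed. Every call between the isolates given below for a single member was lost in the fit with no trend. The comparison shares the TEM4-18 arrays with the choice of members.

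All arrays of the 3 lines were in steps, with TEM4-18 above TEM2-5 and TEM2-5 above PC-3, in 36 of the 50 tested members, where 8.72% of all tested genes showed such steps. The difference between TEM4-18 and PC-3 is what chose the members. The 25 members with a mean signal up to 9557 had a median difference between TEM2-5 and PC-3 of 0.74 on the log2 scale, and the 25 brighter ones of 0.48.

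**Figure D2:**
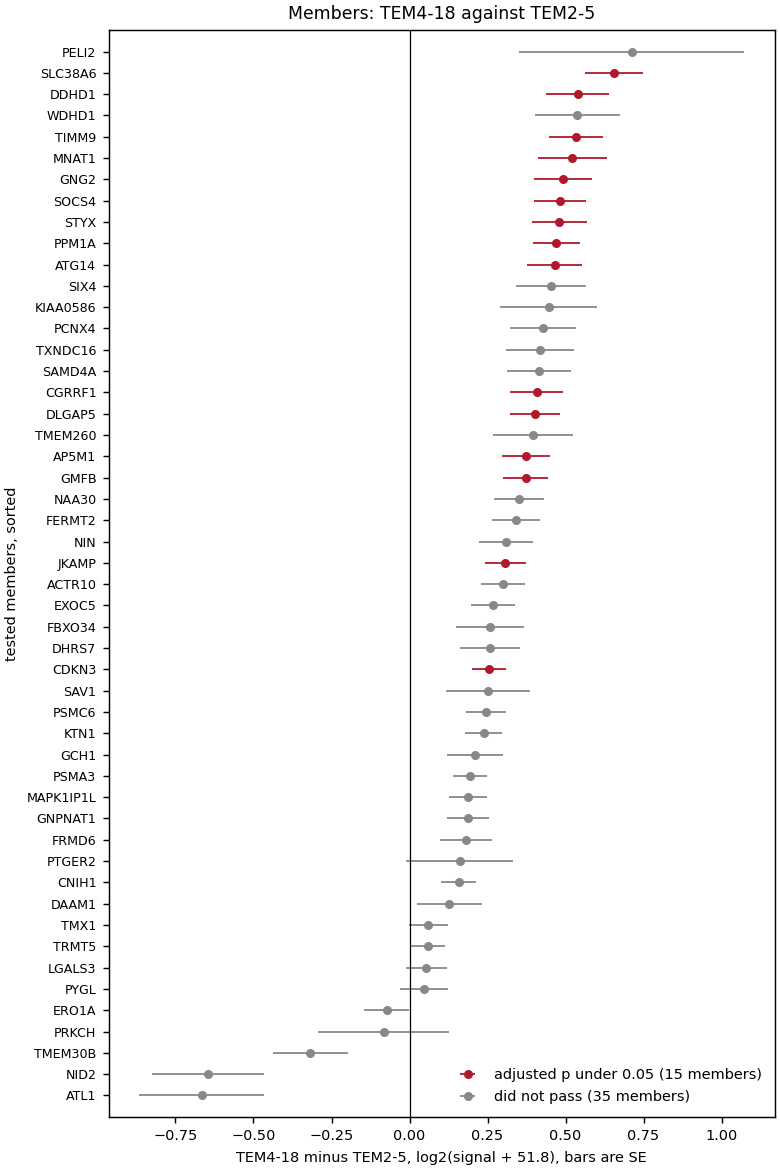
Difference between TEM4-18 and TEM2-5 for each of the 50 tested members on the log2(signal + 51.8) scale, with SE bars, sorted by size. The 15 members that passed the threshold are in red and all lie above 0, and the largest differences below 0 are those of ATL1 and NID2.

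The promoters of PELI2 and TMEM30B are shown because these genes had the largest rise and the largest fall among the members in TEM4-18 against PC-3. That comparison also chose the members. The same genes had the largest rise and the largest fall of the members in TEM2-5. They were taken from RefSeq (GRCh38.p14) and run from 250 bases before to 50 bases after the gene's start. Capitals mark the E-box CAGGTG or its reverse complement CACCTG, a motif known to be bound by ZEB and Snail repressors; the motif was searched on both strands, and no matches overlapped. PELI2 lies on the plus strand at chr14:56118161-56118460, and TMEM30B on the minus strand at chr14:61281289-61281588.
PELI2: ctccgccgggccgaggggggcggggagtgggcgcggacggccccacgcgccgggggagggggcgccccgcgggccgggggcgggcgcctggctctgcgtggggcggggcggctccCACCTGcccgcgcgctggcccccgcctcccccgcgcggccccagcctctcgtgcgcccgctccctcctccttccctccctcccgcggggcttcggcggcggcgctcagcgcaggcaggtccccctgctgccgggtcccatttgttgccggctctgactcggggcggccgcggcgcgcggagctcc
TMEM30B: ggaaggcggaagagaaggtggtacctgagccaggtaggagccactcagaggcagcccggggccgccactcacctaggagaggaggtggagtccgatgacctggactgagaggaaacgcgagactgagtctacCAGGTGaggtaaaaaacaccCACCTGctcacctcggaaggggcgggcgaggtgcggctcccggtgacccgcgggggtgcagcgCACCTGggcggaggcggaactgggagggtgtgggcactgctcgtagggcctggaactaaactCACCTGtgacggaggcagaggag
The PELI2 promoter held 1 match and 45 CpG dinucleotides, and the TMEM30B promoter 4 matches and 18 CpG dinucleotides. Of 47 members with a promoter of 300 bases in the table, 10 held the motif (21.3%), against 20.6% of 27305 promoters of this length and 18.7% of the 11001 that belong to tested genes. TMEM30B was the single member with more than 1 match. A match describes these letters and is not evidence of binding.

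Among the members of the ubiquitin and proteasome system, all 6 tested genes had higher signals in both isolates than in PC-3. In TEM2-5, 5 passed the threshold, a count that includes PELI2. Of all tested genes, 8.98% rose and 10.1% fell in TEM2-5. PELI2, an E3 ubiquitin ligase of the Pellino family that acts in Toll-like and interleukin-1 receptor signalling, had the largest rise of all members. Its signals were 1213 and 1219.6 in TEM4-18, 652 and 800.2 in TEM2-5, and 31.0 and 147 in PC-3. PC-3 was close to background, with an array below the pseudocount of 51.8, and both isolates were far above it (log2 difference of TEM2-5 from PC-3 2.59 ± 0.36, SE). PELI2 passed the filter on low values only through the isolates, since both PC-3 arrays lay below 174, so this difference is given as a description with no p. Its place among the 5 is likewise a description. The size of the rise depends on the pseudocount, and its range over the alternatives was 1.68 to 3.40. Whether PELI2 differed between the isolates was not settled by these arrays (adjusted p = 0.475). SOCS4, a SOCS-box protein that limits growth factor receptor signalling, rose in TEM2-5 by 0.73 ± 0.083 on the log2 scale (SE, adjusted p = 0.000245 by limma) and was higher in TEM4-18 than in TEM2-5 by 0.48 ± 0.083 (adjusted p = 0.0160). PSMC6, an ATPase subunit of the 19S regulatory particle that unfolds proteins for the proteasome, had signals of 49362 and 48330.3 in TEM4-18, 39258 and 43242 in TEM2-5, and 30088 and 29038 in PC-3, with no overlap between lines (log2 difference from PC-3 0.48 ± 0.065, SE, limma adjusted p = 0.000746). PSMA3, an alpha subunit of the 20S core, had signals of 62154 and 64966 in TEM4-18, 55062 and 56094 in TEM2-5, and 50579 and 50033 in PC-3. The PSMA3 arrays were also in steps without overlap, but the difference of TEM2-5 from PC-3 did not pass (0.14 ± 0.055, adjusted p = 0.105 by limma). With quantile normalization it did (0.22, adjusted p = 0.0145). The F-box gene FBXO34 and the RING finger gene CGRRF1 rose in TEM2-5 by 0.51 and 0.34.

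The genes of other proteasome subunits lie elsewhere in the genome. Of 25 tested subunit genes outside the stretch, 0 rose and 4 fell in TEM2-5 against PC-3 by limma's adjusted p (1 and 12 at an unadjusted p under 0.05), and the median difference was -0.15. In TEM4-18, 1 was higher and 11 were lower than in PC-3, with a median of -0.16. The shares over all tested genes were 8.98% higher and 10.1% lower in TEM2-5, and 13.3% and 16.0% in TEM4-18.

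Genes of receptors and signalling rose in 5 of 7 tested cases in TEM2-5, and 0 fell (also 5 and 0 at an unadjusted p under 0.05). Of all tested genes, 8.98% rose and 10.1% fell by adjusted p. By unadjusted p, 2094 and 2392 of all 13621 did so. GNG2 encodes a gamma subunit of heterotrimeric G proteins. Its signals were 13623 and 12580.5 in TEM4-18, 9366 and 9226 in TEM2-5, and 1978 and 1806 in PC-3, so the lines did not overlap. Its mean was 6.92 times that of PC-3 in TEM4-18 and 4.91 times in TEM2-5 (log2 difference from PC-3 2.27 ± 0.093, SE, limma adjusted p = 1.79e-06), and TEM4-18 was above TEM2-5 by 0.49 ± 0.093 (adjusted p = 0.0265 by limma). These values are from the brightest of 4 probe sets. The others differed from PC-3 in TEM2-5 by 1.52, 1.58 and -0.29, the last near background and not passing, and none of them passed between the isolates. With all 4 averaged, GNG2 differed from PC-3 by 1.27 in TEM2-5 and its call between the isolates was lost (0.47, adjusted p = 0.419). PTGER2, the prostaglandin E2 receptor that raises cyclic AMP, had signals of 2671 and 2168 in TEM4-18, 2000.0 and 2305 in TEM2-5, and 706 and 950.1 in PC-3. Both isolates lay above PC-3 and overlapped each other (log2 difference from PC-3 1.34 ± 0.17, SE, limma adjusted p = 0.000551). STYX, a catalytically inactive relative of the dual-specificity phosphatases, was at 10117 and 11125 in TEM4-18, 7499 and 7682 in TEM2-5, and 3819 and 3739 in PC-3. The mean of STYX in TEM2-5 was 2.01 times that of PC-3 (log2 difference from PC-3 1.00 ± 0.089, SE, limma adjusted p = 5.32e-05), and stood higher again in TEM4-18 (difference between the isolates 0.48 ± 0.089, adjusted p = 0.0232). All 4 STYX probe sets rose in TEM2-5, but only 1 passed between the isolates. With the 4 averaged, that call was lost (0.30, adjusted p = 0.194 by limma). The Smaug homologue SAMD4A, which binds RNA and represses translation, and MAPK1IP1L rose in TEM2-5 by 0.80 and 0.68. PPM1A, a phosphatase of the PP2C family, did not pass in TEM2-5 on its brightest probe set (0.10 ± 0.076, adjusted p = 0.418) and was higher in TEM4-18 than in TEM2-5 (0.47 ± 0.076, adjusted p = 0.0111 by limma).

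**Figure D3:**
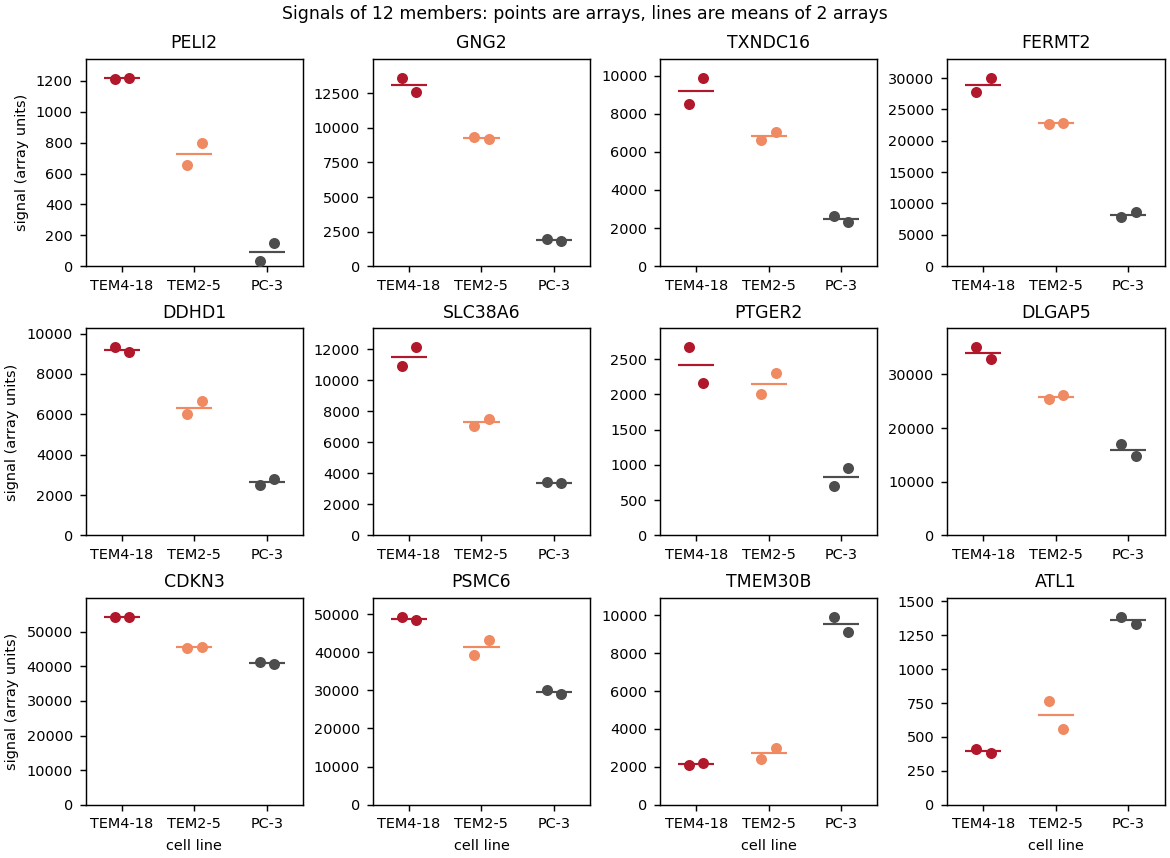
Signals in array units of 12 members on the arrays of TEM4-18, TEM2-5 and PC-3, with points for arrays and lines for the mean of 2 arrays; each panel has its own axis from 0. GNG2, TXNDC16, FERMT2, DDHD1, SLC38A6 and DLGAP5 show TEM4-18 above TEM2-5 above PC-3, and TMEM30B and ATL1 the opposite order.

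Genes of adhesion, the cytoskeleton and the Hippo pathway were mixed: 5 of 9 tested members rose in TEM2-5, 2 fell and 2 did not pass. Of all tested genes, 8.98% rose and 10.1% fell. FERMT2 encodes kindlin-2, which binds the tails of beta integrins and helps to activate them. FERMT2 signals were 27715 and 30016 in TEM4-18, 22734 and 22772 in TEM2-5, and 7781 and 8594 in PC-3. All 3 of its probe sets rose in TEM2-5, and the brightest by a ratio of 2.78 (log2 difference from PC-3 1.47 ± 0.077, SE, limma adjusted p = 2.44e-06). NIN, which encodes the centrosomal protein ninein, had signals of 12462 and 12037 in TEM4-18, 9759 and 10004 in TEM2-5, and 5306 and 4758 in PC-3, again without overlap (log2 difference from PC-3 0.97 ± 0.086, SE, limma adjusted p = 5.38e-05). These NIN values are from the brightest of 5 tested probe sets, of which 2 rose in TEM2-5. The rest differed by 0.090 to 0.32 and did not pass. Over the alternatives the NIN difference ran from 0.50 to 1.05. FRMD6, a FERM-domain protein upstream of the Hippo kinases, rose in TEM2-5 by 0.61 ± 0.083 (SE, adjusted p = 0.000756 by limma). SAV1, the scaffold of the Hippo kinases, had signals of 5076 and 5711 in TEM4-18, 4904 and 4161 in TEM2-5, and 4217 and 3328 in PC-3. Its TEM2-5 arrays overlapped PC-3, and the difference did not pass (0.27 ± 0.13, adjusted p = 0.218 by limma). GMFB, which disassembles branched actin, rose by 0.64 in TEM2-5, and KIAA0586, needed for cilium formation, by 0.75.

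LGALS3 and DAAM1 were the members of this group that fell in TEM2-5. LGALS3 encodes galectin-3, a lectin that binds beta-galactosides on cell surfaces. Its signals were 20470.0 and 19924 in TEM4-18, 19914 and 19005 in TEM2-5, and 25724 and 25493 in PC-3, and both isolates lay below PC-3 without overlap (log2 difference from PC-3 -0.40 ± 0.066, SE, limma adjusted p = 0.00248). With all probe sets averaged the LGALS3 call was lost (adjusted p = 0.642), the other probe set being near background at 105 to 256. DAAM1, a formin of the planar cell polarity branch of WNT signalling, differed from PC-3 by -0.49 ± 0.10 in TEM2-5 (SE, adjusted p = 0.00921 by limma). NID2, a nidogen of basement membranes, had signals of 584 and 622 in TEM4-18, 911 and 1039 in TEM2-5, and 762 and 687 in PC-3. Its TEM4-18 arrays lay below and its TEM2-5 arrays above PC-3, but neither the difference of TEM2-5 from PC-3 (adjusted p = 0.165) nor that between the isolates (adjusted p = 0.126) passed in limma.

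Among 13 tested genes for integrin activation partners of FERMT2 elsewhere in the genome, 1 rose and 0 fell in TEM2-5 by limma's adjusted p (2 and 1 at an unadjusted p under 0.05), with a median of 0.069. In TEM4-18, 4 were higher and 0 lower than in PC-3 (5 and 0 at an unadjusted p under 0.05). Of 19 tested Hippo pathway genes elsewhere, 4 rose and 4 fell in TEM2-5, and 6 were higher and 6 lower in TEM4-18 than in PC-3. Beside both lists, 8.98% of all tested genes rose and 10.1% fell in TEM2-5, and 13.3% were higher and 16.0% lower in TEM4-18.

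Genes of the cell cycle, replication and transcription rose in 3 of 5 tested cases in TEM2-5, and 0 fell. Between the isolates, 3 of the 5 were higher in TEM4-18 than in TEM2-5, beside 0.492% of all tested genes. These 3 calls between the isolates were lost in the fit with no trend of variance on signal. DLGAP5 encodes HURP, which stabilises spindle microtubules at mitosis. DLGAP5 signals were 35068 and 32932 in TEM4-18, 25335 and 26074 in TEM2-5, and 17005 and 14813 in PC-3, and the lines did not overlap (log2 difference from PC-3 0.69 ± 0.079, SE, limma adjusted p = 0.000248). CDKN3, a phosphatase that acts on cyclin-dependent kinases, had signals of 54194 and 54419.5 in TEM4-18, 45406 and 45567 in TEM2-5, and 41351 and 40623 in PC-3. CDKN3 did not pass in TEM2-5 (0.15 ± 0.055, adjusted p = 0.0920 by limma) and was higher in TEM4-18 than in TEM2-5 by 0.26 ± 0.055 (adjusted p = 0.0455). Over the alternatives this last p ran from 0.0112 to 0.467, and the call was lost with no filter, with no trend and when any 1 of the 6 arrays was left out. With quantile normalization between arrays the difference of CDKN3 in TEM2-5 passed (0.23, adjusted p = 0.00660). WDHD1, a replication factor that links the helicase to DNA polymerase alpha, was at 6702 and 7508 in TEM4-18, 4531 and 5237 in TEM2-5, and 4757 and 3605 in PC-3. The TEM2-5 and PC-3 arrays of WDHD1 overlapped on this probe set (adjusted p = 0.298). SIX4, a homeobox transcription factor, had signals of 7859.7 and 8692 in TEM4-18, 5835 and 6206 in TEM2-5, and 3245 and 2689 in PC-3, without overlap (log2 difference from PC-3 1.01 ± 0.11, SE, limma adjusted p = 0.000215). MNAT1, the assembly factor of the CDK-activating kinase, rose in TEM2-5 by 0.74 ± 0.11 (adjusted p = 0.00121) and was higher again in TEM4-18 (0.52 ± 0.11, adjusted p = 0.0430 by limma). Of 27 tested mitosis and replication genes elsewhere, 0 rose and 2 fell in TEM2-5 by limma's adjusted p (3 and 4 at an unadjusted p under 0.05). In TEM4-18, 7 were higher and 1 lower than in PC-3. The shares over all tested genes were 8.98% higher and 10.1% lower in TEM2-5, and 13.3% and 16.0% in TEM4-18.

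Members that act in the endoplasmic reticulum rose in 4 of 7 tested cases in TEM2-5 and did not pass in 1. ATL1 fell, and ERO1A fell on its brightest probe set alone. TXNDC16, a thioredoxin-like protein of the endoplasmic reticulum, had signals of 8530.5 and 9892 in TEM4-18, 6654 and 7065 in TEM2-5, and 2622 and 2299.6 in PC-3. Its lines did not overlap, and the mean in TEM2-5 was 2.79 times that in PC-3 (log2 difference from PC-3 1.46 ± 0.11, SE, limma adjusted p = 2.03e-05). JKAMP, KTN1 and TMX1, which encode membrane proteins of the endoplasmic reticulum, rose in TEM2-5 by 0.58, 0.41 and 0.26. ATL1 is the outermost member on the side of the centromere and encodes atlastin-1, a GTPase that fuses tubules of the endoplasmic reticulum. ATL1 ran the other way, with signals of 408 and 381 in TEM4-18, 768 and 559 in TEM2-5, and 1388 and 1332 in PC-3. Both isolates lay below PC-3 without overlap (log2 difference from PC-3 -0.997 ± 0.20, SE, limma adjusted p = 0.00717), and without TEM2-5 replicate 2 the call in TEM2-5 was lost (-0.78, adjusted p = 0.0697). The 18 tested folding enzymes of the endoplasmic reticulum elsewhere in the genome had 2 rises and 3 falls in TEM2-5. In TEM4-18, 2 of them were higher and 8 lower than in PC-3. Beside them, 8.98% of all tested genes rose and 10.1% fell in TEM2-5, and 13.3% were higher and 16.0% lower in TEM4-18.

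ERO1A, the oxidase that reoxidises protein disulphide isomerase, had probe sets that disagreed. The brightest had signals of 14771 and 14441 in TEM4-18, 14796 and 15943 in TEM2-5, and 19299.6 and 18913 in PC-3, and fell in TEM2-5 (log2 difference from PC-3 -0.31 ± 0.072, SE, limma adjusted p = 0.0140). The next probe set had signals of 16749 and 17046 in TEM4-18, 13535 and 14939 in TEM2-5, and 8922 and 9669.5 in PC-3, and rose in TEM2-5 (0.61, adjusted p = 0.000650 by limma). The dimmest had 5935 and 6157 in TEM4-18, 5272 and 5307 in TEM2-5, and 3803 and 3951 in PC-3, and rose as well (0.44, adjusted p = 0.00806). With the 3 probe sets averaged the difference from PC-3 turned to 0.37 in TEM4-18 and to 0.25 in TEM2-5 (adjusted p = 0.0421), so no direction is given for the gene.

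In vesicle traffic and autophagy, 4 of 5 tested members rose in TEM2-5 and 1 fell, beside 8.98% and 10.1% of all tested genes. ATG14, which directs the phosphatidylinositol 3-kinase complex to forming autophagosomes, had signals of 9906 and 10035 in TEM4-18, 6992 and 7437 in TEM2-5, and 3307 and 3494 in PC-3. The lines were in steps without overlap (log2 difference from PC-3 1.07 ± 0.088, SE, limma adjusted p = 3.51e-05), and TEM4-18 stood above TEM2-5 by 0.46 ± 0.088 (adjusted p = 0.0275 by limma). EXOC5, a subunit of the exocyst, ACTR10, a subunit of dynactin, and AP5M1, a subunit of the AP-5 adaptor, rose in TEM2-5 by 0.70, 0.51 and 0.30. TMEM30B encodes a partner subunit of phospholipid flippases and had the largest fall of the members. Its signals were 2104 and 2226 in TEM4-18, 2435 and 3013 in TEM2-5, and 9936 and 9118 in PC-3, with means of 0.227 of that in PC-3 for TEM4-18 and 0.286 for TEM2-5 (log2 difference from PC-3 -1.79 ± 0.12, SE, limma adjusted p = 1.11e-05).

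Among the members with roles in metabolism, transport and the modification of RNA and proteins, 7 of 11 rose in TEM2-5 and 1 fell. Of all tested genes, 8.98% rose and 10.1% fell. DDHD1, a phospholipase A1, had signals of 9322 and 9064 in TEM4-18, 5995 and 6639.8 in TEM2-5, and 2504 and 2809.9 in PC-3, and the 3 lines did not overlap (log2 difference from PC-3 1.23 ± 0.10, SE, limma adjusted p = 3.28e-05). SLC38A6, of a family of amino acid transporters, was at 10893 and 12118 in TEM4-18, 7067 and 7489 in TEM2-5, and 3412 and 3355 in PC-3. SLC38A6 rose in TEM2-5 (log2 difference from PC-3 1.09 ± 0.092, SE, limma adjusted p = 3.98e-05) and was higher in TEM4-18 than in TEM2-5 (0.66 ± 0.092, adjusted p = 0.00463 by limma). PCNX4, of the pecanex family, had signals of 12187 and 13394 in TEM4-18, 8547 and 10519 in TEM2-5, and 5209.9 and 5305 in PC-3 (log2 difference from PC-3 0.84 ± 0.11, SE, limma adjusted p = 0.000467). PYGL, the liver glycogen phosphorylase, had signals of 11758 and 11255 in TEM4-18, 11099 and 11178 in TEM2-5, and 9534 and 9178 in PC-3. The PYGL arrays of both isolates lay above PC-3, with the isolates close together, and the test in TEM2-5 was at its threshold (log2 difference from PC-3 0.25 ± 0.076, SE, limma adjusted p = 0.0487); over the alternatives this p ran from 0.0318 to 0.210. GNPNAT1, an enzyme of UDP-GlcNAc synthesis, NAA30, the catalytic subunit of the N-terminal acetyltransferase NatC, and TMEM260, an O-mannosyltransferase, rose in TEM2-5 by 0.65, 0.72 and 0.66. TIMM9, a chaperone of mitochondrial protein import, did not pass in TEM2-5 (0.11 ± 0.087, adjusted p = 0.445) and was higher in TEM4-18 than in TEM2-5 by 0.53 ± 0.087 (adjusted p = 0.0115 by limma).

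GCH1, the first enzyme of tetrahydrobiopterin synthesis, fell in TEM2-5. Its signals were 6543 and 6179.8 in TEM4-18, 5317 and 5666 in TEM2-5, and 7032 and 7198 in PC-3, and both isolates were below PC-3 without overlap (log2 difference from PC-3 -0.37 ± 0.089, SE, limma adjusted p = 0.0173). The GCH1 call did not survive the removal of a PC-3 or a TEM2-5 array, with adjusted p of 0.0530 to 0.115. PRKCH, which closes the stretch on the side of the telomere, encodes protein kinase C eta. PRKCH signals were 3755 and 2207 in TEM4-18, 3462 and 2694 in TEM2-5, and 3628 and 3505 in PC-3, with the TEM4-18 arrays spread around those of both other lines. Both TEM2-5 arrays lay below both PC-3 arrays, but the difference did not pass (-0.22 ± 0.21, adjusted p = 0.540 by limma). DHRS7, a short-chain dehydrogenase, and TRMT5, a tRNA methyltransferase, also did not pass in TEM2-5, with differences of -0.25 and 0.026.

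Several members had further probe sets, which in some cases differed from the brightest. The 52 members had 133 probe sets with a single symbol, of which 119 were tested, and 74 of these rose and 7 fell in TEM2-5 against PC-3. No share was computed over all tested probe sets. Over the brightest probe sets of all tested genes, 8.98% rose and 10.1% fell. Of 32 members with several tested probe sets, 9 rose on all of them, 15 rose on some with none falling, 1 (ERO1A) rose on some and fell on another, 2 fell on some with none rising, and 5 passed on none. The genes named next were chosen after their values were seen. CNIH1, which exports cargo from the endoplasmic reticulum, did not pass on a bright probe set with signals of 54061 and 53777 in TEM4-18, 47980.0 and 48683 in TEM2-5, and 46945 and 44489 in PC-3. Its dimmer probe set had 18442 and 18755 in TEM4-18, 14892 and 14027 in TEM2-5, and 6811 and 7227 in PC-3 and rose by 1.04 (adjusted p = 1.88e-05 by limma). WDHD1 likewise rose in TEM2-5 on its dimmer probe sets, by 0.87 and 1.25. PPM1A rose on 4 of 6 probe sets, by up to 1.34, and the exceptions included the brightest. TRMT5 had an _x_at probe set at 50159.7 to 54136 on all arrays, of the kind that can match related transcripts, and another with 6413 and 8020.4 in TEM4-18, 4644 and 4886 in TEM2-5, and 3568 and 4167 in PC-3. That second TRMT5 probe set did not pass in TEM2-5 (0.30, adjusted p = 0.134 by limma). DAAM1 fell in TEM2-5 on 2 of its 4 tested probe sets, the larger fall being -0.77.

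**Figure D4:**
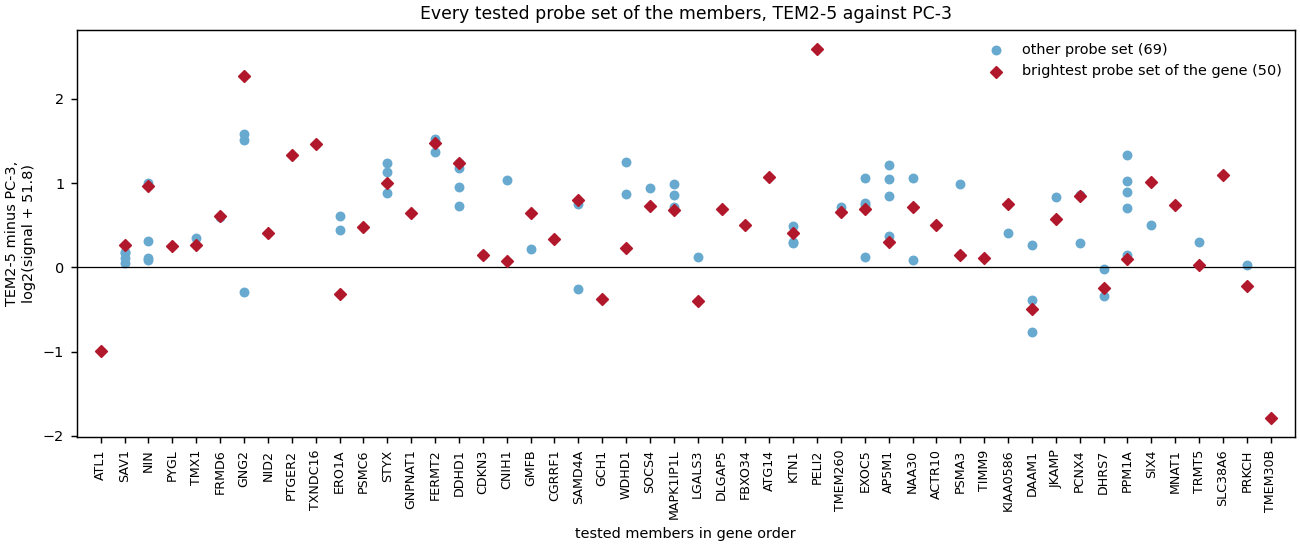
Difference between TEM2-5 and PC-3 on the log2(signal + 51.8) scale for each of the 119 tested probe sets of the members, in gene order, with the brightest probe set of a gene as a red diamond. The brightest probe sets of CNIH1, WDHD1, PPM1A and PSMA3 lie below other probe sets of the same gene, and those of ERO1A lie on both sides of 0.

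The tested genes just outside the stretch were described in the same way. MAP4K5, next to ATL1 on the side of the centromere, encodes a kinase upstream of JNK and had signals of 6514 and 6028 in TEM4-18, 6191 and 6546 in TEM2-5, and 5258 and 4980.3 in PC-3. CDKL1, a kinase related to the cyclin-dependent kinases, had signals of 158 and 236 in TEM4-18, 253 and 342 in TEM2-5, and 352 and 357 in PC-3. DMAC2L had signals of 2998 and 3677 in TEM4-18, 3423 and 3647 in TEM2-5, and 3509 and 4499.5 in PC-3. The isolates thus lay above PC-3 in MAP4K5 and below it in CDKL1, and overlapped PC-3 in DMAC2L. For both flanks, the shares over all tested genes were 13.3% higher and 16.0% lower in TEM4-18, and 8.98% and 10.1% in TEM2-5. Of the 20 tested genes before ATL1, 3 were higher and 2 lower in TEM4-18 than in PC-3, with a median of -0.10. In TEM2-5, 3 of the 20 rose and 0 fell, with a median of 0.12 (6 and 0 at an unadjusted p under 0.05). Without PC-3 replicate 2, 1 of these rose in TEM2-5. HIF1A, next to PRKCH on the side of the telomere, encodes the hypoxia-inducible factor subunit and had signals of 51410.0 and 48523 in TEM4-18, 51339 and 47713 in TEM2-5, and 50964 and 44687 in PC-3, with overlap between all lines. SNAPC1, a subunit of the complex that transcribes small nuclear RNAs, had 22236 and 32386 in TEM4-18, 16911 and 22444 in TEM2-5, and 15103 and 14754 in PC-3. SYT16, of the synaptotagmin family, had 15982 and 17076 in TEM4-18, 6365 and 7236 in TEM2-5, and 2130.1 and 1765 in PC-3, and its difference between TEM4-18 and TEM2-5 was 1.28 ± 0.11 (adjusted p = 0.000163 by limma), larger than that of any member. Of the 20 tested genes after PRKCH, 14 were higher and 1 lower in TEM4-18 than in PC-3 with a median of 0.91, and 8 rose and 0 fell in TEM2-5 with a median of 0.50 (11 and 0 at an unadjusted p under 0.05).

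**Figure D5:**
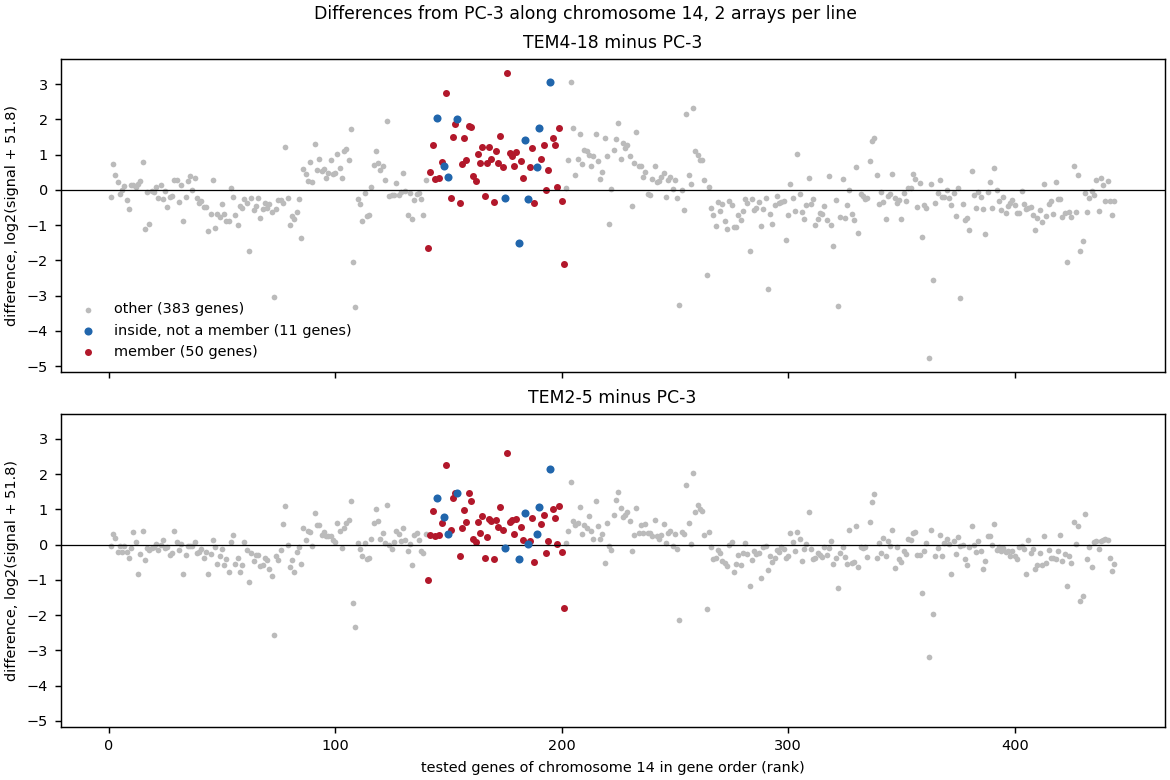
Differences from PC-3 of TEM4-18 (top) and TEM2-5 (bottom) on the log2(signal + 51.8) scale for all tested genes of chromosome 14 against their rank in gene order, with the members in red and the other genes between ATL1 and PRKCH in blue. Points above 0 continue to the right of the members, and the other tested genes of the chromosome have medians of -0.27 in TEM4-18 and -0.11 in TEM2-5.

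Successive blocks of 20 tested genes, set out after the values were seen, continued the description outward. After PRKCH, the second block (RAB15 to DCAF5) had 16 of 20 genes higher in TEM4-18 and 14 in TEM2-5, with 0 lower in either by limma's adjusted p (1 in TEM4-18 and 0 in TEM2-5 at an unadjusted p under 0.05). The third (EXD2 to RBM25) had 10 higher and 1 lower in each. In the fourth (NUMB to FCF1), 0 genes were higher than PC-3 in either line by limma's adjusted p (2 in each at an unadjusted p under 0.05), 11 were lower in TEM4-18 and 3 in TEM2-5, and the medians were -0.60 in TEM4-18 and -0.26 in TEM2-5. Before ATL1, the second block (RALGAPA1 to FKBP3) and the third (SCFD1 to NFKBIA) had 9 and 11 of 20 genes higher and 6 and 4 lower in TEM4-18 than in PC-3, and 4 and 6 higher and 2 and 3 lower in TEM2-5. Over all tested genes, 13.3% were higher and 16.0% lower in TEM4-18, and 8.98% were higher and 10.1% lower in TEM2-5. The fourth block before ATL1 (RNF31 to G2E3) had 1 gene higher and 9 lower in TEM4-18, and 1 higher and 8 lower in TEM2-5. The other 343 tested genes of chromosome 14, these further blocks included, had a median of -0.27 in TEM4-18 and -0.11 in TEM2-5.

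Genes between ATL1 and PRKCH that are not among the members were left out by the rule and were tested as well. Of 11 that were tested, 7 rose in TEM2-5 against PC-3 and 0 fell (also 7 and 0 at an unadjusted p under 0.05), with a median of 0.80. In TEM4-18, 7 were higher and 1 lower than in PC-3. The shares over all tested genes were 8.98% higher and 10.1% lower in TEM2-5, and 13.3% and 16.0% in TEM4-18. C14orf39 had signals of 1485 and 1542 in TEM4-18, 828 and 711 in TEM2-5, and 122 and 149 in PC-3, without overlap (log2 difference of TEM2-5 from PC-3 2.13 ± 0.21, SE). It too lay below the filter in PC-3 and passed only through the isolates, so no p is given. C14orf39 is counted among the 7 in each line, and there too it is a description. GPR137C, at 2483 and 2828 in TEM4-18, 1649 and 1964 in TEM2-5, and 633 and 615 in PC-3, rose in TEM2-5 by 1.45 ± 0.15 (adjusted p = 0.000124 by limma). TRIM9, L3HYPDH, PSMA3-AS1, FRMD6-AS1 and RTRAF also rose in TEM2-5, by 1.31, 1.06, 0.90, 0.80 and 0.29. Without TEM2-5 replicate 1, 4 of these 11 genes rose. CCDC198 was lower in TEM4-18, at 29.5 and 109 in TEM4-18, 236 and 156 in TEM2-5, and 297 and 252 in PC-3. Both of its TEM4-18 arrays lay below the filter, and CCDC198 passed it only through the other lines. CCDC198 is the 1 gene counted as lower in TEM4-18, and that count is likewise a description.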

How the data were processed

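RNA of 3 lines was measured on 6 short-oligonucleotide arrays. The deposited values are linear signal intensities per probe set, and the submitters' processing notes name MAS5; no version or build is given in the sources used here. The authors' intensities had a 2% trimmed mean of 1500.17 to 1500.18 on every array and were not normalized again. The title, not the source name, numbered the second TEM2-5 array.

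Of 54675 probe sets, 41097 had a single gene symbol in the platform annotation, 1801 had several and 11777 none; 62 were controls. Gene IDs matched to a RefSeq table (GRCh38.p14), used for names and gene order, changed 0 symbols and left 54 probe sets unmatched. Values were transformed to log2(signal + 51.8), the pseudocount being the 20th percentile. Such differences understate the change of dim genes. Probe sets whose mean passed the 40th percentile (174) were kept (32768, 13621 genes), and the brightest stood for its gene.

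limma 3.58.1 (R 4.3.3; lmFit, eBayes with trend) was fitted to all 6 arrays with 3 group means, tested on simulated data, with Benjamini-Hochberg adjustment over all probe sets. Errors are SEs of the fit. The number of arrays limits the precision. The members and lists were chosen with earlier results of these data known. Members with values on every array are the 12 largest rises and 3 lowest differences in TEM4-18, the 6 largest differences in TEM2-5 and between isolates, the ends of the stretch, and 12 genes chosen for their roles. Of other genes, the 3 next to each end and those inside the stretch that passed are named. Alternatives were the pseudocount, filter, quantile normalization, trend, averaging of probe sets, replicate block and leaving out each array.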

Additional observations from a re-analysis of the deposited data

Results flagged for a closer look

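The difference between TEM4-18 and TEM2-5, which is also the difference between their changes from PC-3, passed limma's adjusted threshold in 15 members, all of them higher in TEM4-18. On the log2(signal + 51.8) scale these were 0.66 for SLC38A6, 0.54 for DDHD1, 0.53 for TIMM9, 0.52 for MNAT1, 0.49 for GNG2, 0.48 for SOCS4, 0.48 for STYX, 0.47 for PPM1A, 0.46 for ATG14, 0.41 for CGRRF1, 0.40 for DLGAP5, 0.37 for AP5M1, 0.37 for GMFB, 0.31 for JKAMP and 0.26 for CDKN3. SYT16 (1.28) and PSMA3-AS1 (0.51), which are not members, passed as well. With all probe sets averaged, the calls of the members GNG2, STYX and DDHD1 were lost. With no trend of variance on signal 0 members passed, and with no filter on low values 6 did. As described above, the number of calls also rested on single arrays. The comparison shares the TEM4-18 arrays with the choice of members. NID2 was below PC-3 on both TEM4-18 arrays and above it on both TEM2-5 arrays; the difference between the isolates was -0.65 and did not pass (adjusted p = 0.126).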

How the results depend on the processing

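The direction of the medians held under all 14 alternatives: 0.78 to 0.86 for TEM4-18 against PC-3, 0.47 to 0.57 for TEM2-5 against PC-3, and 0.28 to 0.32 for TEM4-18 against TEM2-5. The last was 0.28 with no filter on low values, and leaving out single arrays gave 0.78 to 0.86 and 0.47 to 0.57 for the others. Members higher in TEM4-18 than in PC-3 numbered 34 to 42 over all alternatives, and members higher in TEM2-5 27 to 38 except without the mean-variance trend, with 21. The members were chosen on TEM4-18 against PC-3, so the counts and medians of that comparison are a description under every setting. Without the trend, 7.31% of all tested genes were higher in TEM4-18 and 3.33% in TEM2-5. With the filter at the 60th percentile these shares were 17.9% and 12.5%. Without the trend, members lower were 2 in each line against PC-3, and members higher in TEM4-18 than in TEM2-5 were 0. Genes higher in TEM2-5 without the trend were 1 before ATL1 and 3 among the other genes of the stretch. With all probe sets averaged, 2 members were lower in TEM4-18 and 3 in TEM2-5. Leaving out single arrays gave 3 to 6 members lower in TEM2-5, 1 to 2 of 20 genes higher before ATL1, and 4 to 7 of the other genes of the stretch. Members higher in TEM4-18 than in TEM2-5 were 6 with no filter, and 0 to 13 when single arrays were left out. The replicate numbers did not pair the arrays (correlations of same-numbered deviations 0.062 to 0.098). With a replicate block, 33 members rose and 7 fell in TEM2-5, 20 were higher in TEM4-18 than in TEM2-5, and 5 of 20 genes before ATL1 rose in TEM2-5. With all probe sets averaged, signs turned for ERO1A (0.37 in TEM4-18 and 0.25 in TEM2-5 against PC-3, and 0.12 between the isolates) and for LGALS3 in TEM4-18 (0.021). PRKCH was 0.074 above PC-3 and 0.29 above TEM2-5 without TEM4-18 replicate 2, against -0.68 and -0.46 without TEM4-18 replicate 1, and 0.095 above TEM2-5 without TEM2-5 replicate 1. The cause of these changes was not tested, beyond the smaller number of arrays. Of 364 values of named members per comparison, 350, 337 and 311 kept direction and call in the comparisons of TEM4-18 with PC-3, of TEM2-5 with PC-3 and of the isolates.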
